A study of Mus musculus with 24 samples.

Results

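The 10 genes described here, Mogat1, Dgat1, Dgat2, Gpam, Agpat2, Lpin1, Lpin2, Pnpla2, Pnpla3 and Mttp, encode enzymes and a transfer protein of hepatic triglyceride (TG) metabolism. They were chosen by name for their place in the pathway, with earlier results of these data known, and were all found among the 25746 genes with counts. Hepatic RNA was sequenced from 24 mice aged 12 weeks, 6 each of male wildtype (mWT), male knockout (mKO), female wildtype (fWT) and female knockout (fKO), with 1 library per mouse. All mice were C57BL/6N. The KO mice were homozygous for a deletion of the whole cluster of major urinary protein (Mup) genes made with CRISPR/Cas9, and the KO line goes back to a single male founder, so the KO groups represent 1 deletion event. The mice of all groups received standard chow ad libitum and were fasted for some hours and anesthetized for body composition scanning before the liver was taken.

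Hepatocytes build TG on a glycerol 3-phosphate backbone. Gpam, the mitochondrial glycerol-3-phosphate acyltransferase, adds the first fatty acid, Agpat2 adds the next one, and the lipins Lpin1 and Lpin2 remove the phosphate to give diacylglycerol. Dgat1 and Dgat2 complete the TG, and Mogat1 makes diacylglycerol from monoacylglycerol in a route that bypasses glycerol 3-phosphate. Stored TG is hydrolyzed by Pnpla2, the adipose triglyceride lipase, while Pnpla3 is a related protein of the lipid droplet surface. The microsomal triglyceride transfer protein Mttp loads TG onto apolipoprotein B, the step that starts the very low density lipoprotein (VLDL) particle.

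Libraries held between 15361901 and 26261394 counts, so that 3 counts, taken as the smallest detectable amount, corresponded to between 0.114 and 0.195 CPM, counts scaled to the size of the library, a limit that covers counting error only. Summed expression of the 22 Mup genes was between 17020 and 37370 CPM in mWT and between 3393 and 5256 CPM in fWT mice, and in KO mice it did not exceed 0.457 CPM (males) and 0.415 CPM (females), with any Mup read in 1 mKO and 2 fKO mice. Hepatocyte markers summed to between 96920 and 153300 CPM in every library. By these markers and the Mup sums, no library went against its tissue or genotype label. The Mup sums do not check the sex of the KO mice. Adipocyte markers, which matter here because fat cells also express several of the 10 genes, summed to between 1.47 and 9.21 CPM over all groups, and Lep was at 0 in every library. In bulk liver RNA, fewer cells of a type and less RNA per cell cannot be told apart.

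Divided by exon length, Dgat2 was the most abundant of the 10 genes in each group, with a mean over all mice of 140.6 CPM per kb. Mttp followed with 64.3 CPM per kb, Lpin1 with 58.1, Agpat2 with 51.7, Lpin2 with 39.0 and Gpam with 34.4 CPM per kb. Pnpla2 was at 18.4 and Dgat1 at 6.05 CPM per kb. Pnpla3, at 0.601 CPM per kb, and Mogat1, at 0.355 CPM per kb, were the least abundant and were counted with between 2 and 69 and between 3 and 32 reads per mouse. Pnpla3 was at or under 3 counts in 2 mice and Mogat1 in 1 mouse. The order of Mttp, Lpin1 and Agpat2 differed between groups, while Dgat2 had rank 1, Lpin2 rank 5, Gpam rank 6, Pnpla2 rank 7 and Dgat1 rank 8 in all of them.

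**Figure D1:**
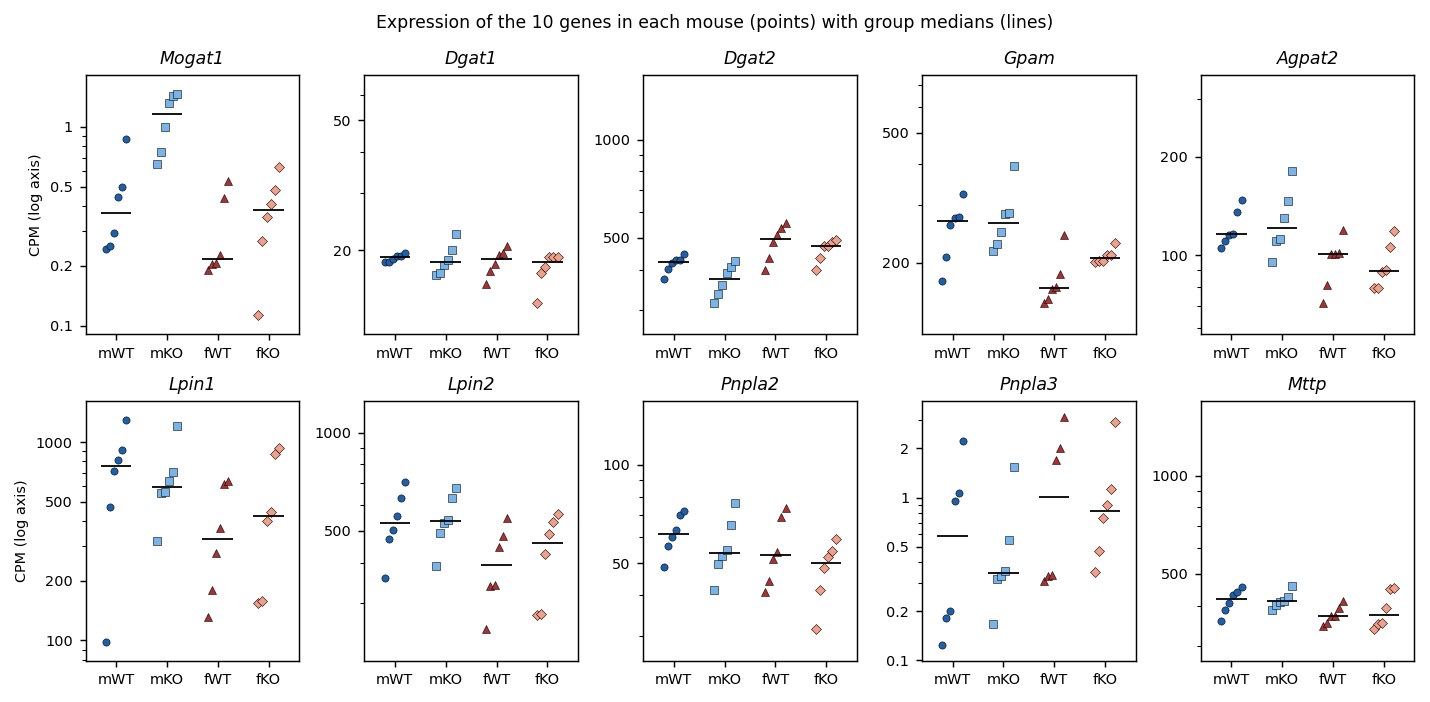
Expression of each of the 10 genes in CPM (log axis), with 1 point per mouse, 6 mice per group and a line at each group's median. Mogat1 lay between 0.653 and 1.46 CPM in mKO mice and at or under 0.871 CPM in all other groups, whereas Lpin1 and Pnpla3 were spread widely inside each group and Mttp and Dgat1 hardly at all.

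Of the 10 genes, Mogat1 was the one that differed between mKO and mWT mice. It was expressed at 0.653 CPM in the lowest, 1.16 CPM in the median and 1.46 CPM in the highest mKO mouse, and at 0.244, 0.369 and 0.871 CPM in the lowest, median and highest mWT mouse. Of the mWT mice, 5 lay below every mKO mouse, and mWT mouse 2 lay above the lowest 2 mKO mice, so the groups overlapped. In females, Mogat1 ranged from 0.191 to 0.534 CPM in fWT (median 0.217) and from 0.113 to 0.631 CPM in fKO mice (median 0.381), and these 2 groups overlapped over most of their range. The order of the group means was mKO, mWT, fKO and fWT, with 1.10 ± 0.353, 0.434 ± 0.239, 0.375 ± 0.178 and 0.300 ± 0.148 CPM (SD, n = 6 each), and each of the 3 latter groups overlapped with the others.

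In the model fitted to all 12330 genes with edgeR's quasi-likelihood test, Mogat1 had a log2 fold change (log2FC) of 1.35 for mKO against mWT (SE 0.345, 95% confidence interval 0.64 to 2.06, unadjusted p = 0.000567, Benjamini-Hochberg adjusted p = 0.111). This passed the study's cut-off, an unadjusted p under 0.01, as did 3.52% of all genes tested, and did not pass an adjusted p under 0.05, as 0.211% of them did. Mogat1 had enough reads to be tested because 5 of the 6 libraries above the minimum of 0.66 CPM were from mKO mice and 1 from an mWT mouse, so the filter itself depended on the group in which it was high. Tested without any filter, its log2FC was 1.36 (unadjusted p = 0.000522, adjusted p = 0.13 with edgeR). Without mWT mouse 2, and with the same genes tested, it was 1.67 (unadjusted p = 8.1e-05, adjusted p = 0.0277 with edgeR). Its log2FC for fKO against fWT was 0.28 (95% confidence interval −0.55 to 1.11, adjusted p = 0.96 with edgeR). The male KO effect minus the female one was 1.07 on the log2 scale (95% confidence interval −0.03 to 2.18, unadjusted p = 0.0569 with edgeR), so the KO effect was not shown to differ between the sexes.

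The locus of Mogat1 in the GENCODE M21 annotation of GRCm38 is chromosome 1, 78510991 to 78538173 on the plus strand, in 9 exon blocks. BC035947, on the opposite strand, shares 200 bp of exon with it and had 13 counts in total over the 24 libraries. The genes whose expression was most like that of Mogat1 over the 24 libraries, by Spearman correlation of log2(CPM + 0.5), were Ces2e (rho = 0.817), a carboxylesterase, Aqp4 (rho = 0.812), a water channel, and Gtf2h5 (rho = 0.808), a subunit of the general transcription factor TFIIH. These values include the differences between groups and are given as a description.

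Besides Mogat1, none of the 10 genes passed the cut-off for mKO against mWT. In this comparison 5 had a positive and 5 a negative log2FC, with a median of 0.0021 against −0.0022 over all genes tested. None of the 10 separated all mKO from all mWT mice, as 1.09% of all genes tested did.

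For the acyltransferases that build TG from glycerol 3-phosphate, the half-width of the 95% confidence interval was between 0.17 and 0.29 on the log2 scale. Dgat2 was expressed at 317 CPM in the lowest, 374.5 CPM in the median and 425 CPM in the highest mKO mouse, and at 373.5, 423 and 447 CPM in mWT mice. The mKO mice reached lower and the groups overlapped, and the log2FC was −0.16 (95% confidence interval −0.34 to 0.01, unadjusted p = 0.0658 with edgeR). Dgat1 lay between 16.8 and 22.4 CPM in mKO (median 18.4) and between 18.4 and 19.7 CPM in mWT mice (median 19.0), and the 95% confidence interval of its fold change was 0.882 to 1.12. Gpam ranged from 216 to 396 CPM in mKO (median 265) and from 175 to 325 CPM in mWT mice (median 267.5), and Agpat2 from 95.3 to 181.5 CPM in mKO (median 121) and from 105 to 148 CPM in mWT mice (median 116). Both had the overlapping groups and the small log2FCs of 0.12 (95% confidence interval −0.17 to 0.41) for Gpam and 0.09 (−0.20 to 0.38) for Agpat2. Agpat2 shares 64 bp of exon with Egfl7 on the opposite strand.

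Mttp, the VLDL assembly protein, varied least of the 10 genes among mice of a group. It was at 388 CPM in the lowest, 413 CPM in the median and 461 CPM in the highest mKO mouse, and at 359, 418 and 455 CPM in mWT mice. Its log2FC was 0.01 (95% confidence interval −0.15 to 0.17), or 0.903-fold to 1.13-fold. Mttp shares 457 bp of exon with Trmt10a on the opposite strand.

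For the lipins, Pnpla2 and Pnpla3 the half-width was between 0.34 and 1.61. Lpin1 was expressed at 319 CPM in the lowest, 598 CPM in the median and 1214 CPM in the highest mKO mouse, and at 98.8, 761 and 1294 CPM in mWT mice. The mWT range enclosed the mKO range, and the log2FC of −0.11 had a 95% confidence interval of −1.23 to 1.02, or 0.425-fold to 2.02-fold. Lpin2 lay between 391 and 677 CPM in mKO (median 536) and between 360 and 704.5 CPM in mWT mice (median 528), a log2FC of 0.02 (95% confidence interval −0.40 to 0.44). Pnpla2 lay between 41.4 and 76.6 CPM in mKO (median 53.8) and between 48.8 and 72.0 CPM in mWT mice (median 61.6), a log2FC of −0.12 (95% confidence interval −0.46 to 0.21). For Pnpla3, the values of 0.166 to 1.54 CPM in mKO (median 0.344) and 0.124 to 2.23 CPM in mWT mice (median 0.578) overlapped nearly completely, and the log2FC of −0.54 had an interval of −2.15 to 1.07.

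For fKO against fWT, none of the 10 genes passed either cut-off, where 0.868% of all genes tested passed the unadjusted and 0.0892% the adjusted cut-off in edgeR. None of the 10 had an unadjusted p-value under 0.05, none passed in DESeq2, and none separated the groups, as 0.349% of all genes did. The median log2FC of the 10 genes was 0.01 against −0.0026 over all genes. Gpam, at 201 to 229 CPM in fKO (median 206.5) and 151 to 243 CPM in fWT mice (median 168), had the lowest unadjusted p-value. Of the fWT mice, 5 lay below all fKO mice and fWT mouse 4 above them, and the log2FC was 0.23 (95% confidence interval −0.06 to 0.52, unadjusted p = 0.11 with edgeR). Lpin1, at 154 to 930 CPM in fKO (median 423) and 131 to 641 CPM in fWT mice (median 323), had a log2FC of 0.42 with an interval of −0.71 to 1.54. For Dgat1 the log2FC was −0.07 (−0.24 to 0.10), for Dgat2 −0.09 (−0.26 to 0.09) and for Mttp 0.06 (−0.10 to 0.22). For the difference between the male and the female KO effect, none of the 10 genes passed at an unadjusted p-value under 0.01 or 0.05 or at an adjusted one under 0.05 in edgeR, and none passed in DESeq2, while 1.16% of all genes passed the unadjusted and 0.00811% the adjusted cut-off in edgeR.

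The same genes were compared between the sexes. In wildtype mice, Gpam, the acyltransferase of the first step, was expressed at 175 CPM in the lowest, 267.5 CPM in the median and 325 CPM in the highest mWT mouse and at 151, 168 and 243 CPM in fWT mice. The female values were lower, with an overlap that came from the lowest mWT mice and fWT mice 1 and 4. The log2 difference was 0.51 (SE 0.142, 95% confidence interval 0.22 to 0.80, adjusted p = 0.0136 with edgeR), and Gpam was the 1 gene of the 10 past either cut-off in this comparison, which 18.2% of all genes passed at an unadjusted p-value under 0.01 and 17.3% at an adjusted one under 0.05. None of the 10 separated mWT from fWT mice, as 7.71% of all genes did. Dgat2 was lower in mWT than in fWT mice by a log2 difference of −0.22 (unadjusted p = 0.0133 with edgeR) and Agpat2 higher by 0.35 (unadjusted p = 0.0215 with edgeR), neither past the cut-off. Without fWT mouse 2 or without fWT mouse 3, Dgat2 passed as well, and without fWT mouse 4, Agpat2 passed at the unadjusted p-value.

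Between mKO and fKO mice, 4 of the 10 genes passed an unadjusted p-value under 0.01, which 15.9% of all genes passed, and 3 of them an adjusted one under 0.05, which 14.4% of all genes passed. Mogat1 was higher in every mKO than in every fKO mouse, and 7.26% of all genes separated these groups in one direction or the other. Mogat1 was tested because 5 mKO and 1 mWT libraries, and 0 fKO libraries, reached 0.66 CPM. The filter thus depended on the group in which it was high here too, which limits the comparison with the shares of all genes. The log2 difference of Mogat1 was 1.58 (SE 0.341, 95% confidence interval 0.88 to 2.29, adjusted p = 0.00178 with edgeR), while it was 0.51 in wildtype mice (95% confidence interval −0.32 to 1.35). Dgat2 ranged from 317 to 425 CPM in mKO and from 399 to 491 CPM in fKO mice (median 472), with 4 of the 6 mKO mice below all fKO mice. It was lower in mKO than in fKO mice by a log2 difference of −0.30 (SE 0.0845, adjusted p = 0.0157 with edgeR). Agpat2 was between 79.2 and 118 CPM in fKO mice (median 89.4) and higher in mKO mice by 0.47 (SE 0.141, adjusted p = 0.0268 with edgeR), with overlapping groups. Gpam was higher in mKO mice by 0.40 and passed the unadjusted cut-off alone (unadjusted p = 0.00961, adjusted p = 0.0612 with edgeR), and it was past that cut-off in 26 of 57 alternative analyses. Without mKO mouse 4, the highest mouse of its group for both Gpam and Agpat2, the log2 difference was 0.26 for Gpam and 0.34 for Agpat2, and neither passed. The adjusted p-value of Agpat2 was also no longer under 0.05 with edgeR without mKO mouse 5 (0.0639), fKO mouse 1 (0.0625), fKO mouse 4 (0.0549) or fKO mouse 5 (0.0658), where its log2 difference was between 0.42 and 0.45.

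These sex comparisons share their mice with the KO comparisons. Markers of other liver cells differed between the sexes too. Of 21 tested markers of Kupffer cells, sinusoidal endothelial cells, stellate cells and cholangiocytes, 9 were lower and 0 were higher in mWT than in fWT mice, and 5 were lower and 0 higher in mKO than in fKO mice at an unadjusted p-value under 0.01. Of all genes tested, 18.2% passed that cut-off for mWT against fWT and 15.9% for mKO against fKO, higher or lower. The summed stellate markers, for instance, ranged from 251 to 406 CPM in mWT and from 354 to 466 CPM in fWT mice. The summed red blood cell markers ranged from 149 to 260 CPM in male and from 40.5 to 67.8 CPM in female mice. Of these, Alas2 was higher in males by a log2 difference of 3.44 in wildtype and 3.15 in KO mice (adjusted p = 1.4e-13 and 8.3e-13 with edgeR). The globin genes were higher in mWT than in fWT mice by only 0.31 to 0.50, none with an adjusted p under 0.05. In mKO against fKO mice they were higher by 0.914 to 1.145, each with an adjusted p under 0.05. The summed adipocyte markers ranged from 3.74 to 9.21 CPM in male and from 1.47 to 5.27 CPM in female mice. Adrb3, the only 1 of 6 with enough reads to be tested, was higher in males. Its log2 difference was 1.10 in wildtype and 0.92 in KO mice (adjusted p = 0.00714 and 0.0264 with edgeR). Adipoq, Lep and Retn were at 0 in every mWT library, whereas Adipoq had reads in fWT mice and in both KO groups. The summed markers of pancreatic acinar cells ranged from 15.3 to 31.0 CPM in male and from 8.89 to 19.1 CPM in female mice. Cela1, the 1 of 6 that was tested, was higher in mKO than in fKO mice by 0.61 (adjusted p = 0.0161 with edgeR). Pnlip, Cel and Prss1 were at 0 in every library. In mWT and fKO mice all acinar markers but Cela1 were at 0, so there the sum is Cela1 alone. The part of the markers of these cell types in the sex differences of Gpam, Dgat2, Agpat2 and Mogat1 was not tested. For mKO against mWT, where Mogat1 passed, 1 of 34 markers of all 8 cell types passed an unadjusted p-value under 0.01 in edgeR, the hepatocyte marker Ttr (log2FC 0.30, unadjusted p = 0.00427), and 3 passed in DESeq2, Ttr and the globin genes Hbb-bs and Hbb-bt. Of all genes tested, 3.52% passed this cut-off in edgeR. In edgeR, Hbb-bs had a log2FC of 0.45 (unadjusted p = 0.0145) and Hbb-bt one of 0.53 (unadjusted p = 0.0125), and the median over the 5 red blood cell markers was 0.43, with summed levels of 155 to 259.5 CPM in mKO and 149 to 214 CPM in mWT mice. The part of these markers in the difference of Mogat1 was not tested.

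**Figure D2:**
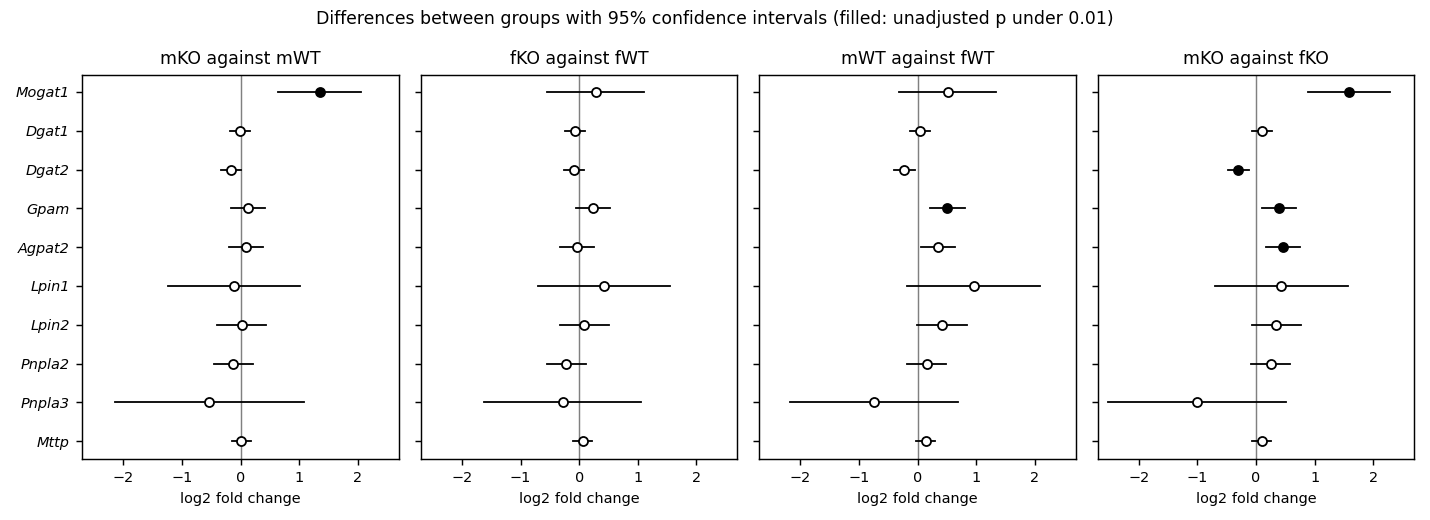
Log2 fold changes (log2FC) of the 10 genes in 4 comparisons of 6 against 6 mice, with 95% confidence intervals from the edgeR model as bars and filled points for an unadjusted p-value under 0.01. In the KO comparisons Mogat1 in males, at 1.35, is the only filled point, while 1 gene is filled for mWT against fWT and 4 are filled for mKO against fKO. The widest bars belong to Lpin1 and Pnpla3.

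Around the 10 genes, 66 further genes of TG synthesis, lipolysis, the lipid droplet, VLDL assembly and their regulators were listed, and 64 of them were expressed enough to be tested. For mKO against mWT, 4 of the 64 genes (6.25%, against 3.52% of all genes) passed an unadjusted p-value under 0.01, all of them with higher expression in mKO mice, 10 had one under 0.05, and 0 passed after adjustment in edgeR, where DESeq2 gave 3. Shares of all genes were taken for edgeR at its cut-offs only, so counts at an unadjusted p-value under 0.05 and in DESeq2 have no reference. Among them was the lipid droplet coat protein gene Plin2, 1 of 11 lipid droplet genes tested. It was at 316 CPM in the lowest, 403 CPM in the median and 442 CPM in the highest mKO mouse and at 158, 272 and 401 CPM in mWT mice, a log2FC of 0.57 (SE 0.139, adjusted p = 0.101 with edgeR).

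Insig2, which holds the sterol regulatory proteins in the endoplasmic reticulum, was the 1 of 15 regulators that passed. It ranged from 244 to 446 CPM in mKO (median 335.5) and from 75.4 to 299 CPM in mWT mice (median 132.5), a log2FC of 1.08 (SE 0.294, adjusted p = 0.147 with edgeR). The wildtype range was the wider one and the groups overlapped.

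Of 11 lipolysis genes, the lysosomal acid lipase gene Lipa and the hepatic lipase gene Lipc passed. Lipa ranged from 229 to 312 CPM in mKO (median 273) and from 170 to 251.5 CPM in mWT mice (median 222.5), a log2FC of 0.32 (SE 0.0932, adjusted p = 0.173 with edgeR). Lipc was higher in every mKO mouse, at 175 to 226 CPM (median 187), than in every mWT mouse, at 144 to 169 CPM (median 157), a log2FC of 0.29 (SE 0.086, adjusted p = 0.181 with edgeR), and 1.09% of all genes separated these groups. None of 14 genes of TG synthesis and none of 13 genes of VLDL assembly passed in males, with median log2FCs of 0.04 and −0.0083. For fKO against fWT, and for the difference between the sexes, 0 of the 64 genes passed in edgeR, with 5 and 4 genes at an unadjusted p-value under 0.05, and DESeq2 gave 0 and 2 genes at an unadjusted p-value under 0.01. The log2FCs in females were 0.11 for Plin2, 0.22 for Insig2, 0.23 for Lipa (unadjusted p = 0.019 with edgeR) and 0.0011 for Lipc. The difference between the male and female effect was 0.46 for Plin2 (unadjusted p = 0.0285 with edgeR) and 0.29 for Lipc (unadjusted p = 0.0263 with edgeR). It was 0.86 for Insig2 (unadjusted p = 0.05004 with edgeR) and 0.083 for Lipa (unadjusted p = 0.535 with edgeR). The adjusted p-values of these 4 differences lay between 0.823 and 0.947 with edgeR.

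For mWT against fWT, 7 of the 64 genes were higher and 4 lower past the adjusted threshold, together 17.2% of those tested, which is the share among all genes (17.3%). In the first steps of TG synthesis, the glycerol-3-phosphate dehydrogenase gene Gpd1 was higher in mWT mice by a log2 difference of 0.56 (adjusted p = 0.00578 with edgeR), as was the acyltransferase gene Gpat4 by 0.58 (adjusted p = 0.015), while Gpat3 was lower by −1.20 (adjusted p = 0.0176). In lipolysis, Abhd5, the coactivator of the Pnpla2 lipase, was higher by 0.34 (adjusted p = 0.00238 with edgeR) and Lipc lower by −0.68 (adjusted p = 1.97e-06 with edgeR), each without overlap between the groups. Fitm1, an endoplasmic reticulum protein of lipid droplet formation, was between 8.17 and 19.4 CPM in mWT and between 1.14 and 3.87 CPM in fWT mice, a log2 difference of 2.29 (adjusted p = 9.81e-07 with edgeR). In VLDL assembly, Tm6sf2, which takes part in lipidation of the particle, was lower in mWT mice by −0.95 (adjusted p = 5.73e-08 with edgeR), whereas the sorting receptor gene Sort1 and the transport vesicle gene Sec24a were higher by 0.93 (adjusted p = 0.00388) and 0.28 (adjusted p = 0.0325). Of the genes named here, the difference between mKO and fKO mice was past the same threshold for Gpd1, Gpat3, Abhd5, Lipc, Fitm1 and Tm6sf2, and Plin2 and Insig2 were past it in that comparison as well.

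Between mKO and fKO mice, 10 of the 64 genes were higher and 7 lower in mKO mice at an unadjusted p-value under 0.01 (26.6%, against 15.9% of all genes), and 9 and 6 past the adjusted threshold. Of the 11 lipid droplet genes, 7 were higher and 0 lower at the unadjusted p-value and 6 higher past the adjusted one, with a median log2 difference of 0.34 against −0.0045 over all genes. Plin2 and Fitm1 were among them, with log2 differences of 0.49 (adjusted p = 0.0165 with edgeR) and 3.0 (adjusted p = 1.71e-08 with edgeR), each without overlap between the groups. The others, named after their values were seen, were the coat protein gene Plin3, the droplet fusion genes Cideb and Cidec, the seipin gene Bscl2 and the droplet dehydrogenase gene Hsd17b13, with log2 differences between 0.23 and 1.23. With mice left out in turn, the number that was higher ranged from 4, without fKO mouse 5, to 7. The list was singled out after its count was seen. The adipocyte marker Adrb3 was higher in mKO than in fKO mice too, and its part in these differences was not tested.

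Beside the groups, the 10 genes differed in how far they varied among mice of the same sex and genotype. The spread was measured as the standard deviation of log2(CPM + 0.5) around the group means. It was 0.129 for Mttp, 0.136 for Dgat1 and 0.144 for Dgat2, below the median of 0.192 over all genes tested. It was 0.259 for both Gpam and Agpat2, 0.299 for Pnpla2, 0.308 for Mogat1 and 0.380 for Lpin2. Pnpla3 had a spread of 0.792, higher than that of 99.4% of the genes tested, and Lpin1 one of 1.03, higher than that of 99.7%. Lpin1 differed 13.1-fold between the lowest and the highest mouse, and both belonged to the mWT group, mouse 2 with 98.8 CPM and mouse 1 with 1294 CPM. The counts behind these values were 1587 and 20729 reads, so that counting error was small. In every group the highest mouse had at least 3.8 times the Lpin1 level of the lowest one. For Pnpla3 and Mogat1, with between 2 and 69 reads per mouse, counting error takes part in the spread. The added 0.5 CPM narrows the spread of Pnpla3 and of Mogat1. The order of Pnpla3 against Lpin1, and of Mogat1 against Lpin2 and the other genes, is therefore not settled by these values. In CPM, the highest mouse had 9.23, 10.2 and 8.34 times the Pnpla3 level of the lowest in mKO, fWT and fKO mice. For Lpin1 the same values were 3.8, 4.89 and 6.04. In mWT mice the lowest Pnpla3 value rested on 2 counts, and no such value was formed. For Mogat1 the highest mouse was more times above the lowest than for Lpin2 in mWT, mKO and fWT mice. In fKO mice the lowest Mogat1 value rested on 3 counts, and no such value was formed.

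Some of the 10 genes varied together among the mice. Correlations were computed from the deviations of the 24 mice from their group means, so that sex and genotype do not enter, for all 45 pairs of genes, with two-sided p-values from 100000 shuffles of the mice inside their groups and Benjamini-Hochberg adjustment over the 45 pairs. Each point is 1 library, so that what affects a whole library is shared by both genes of a pair. The pairs of Lpin1 with Lpin2 and of Lpin1 with Pnpla2 had adjusted p-values under 0.05 for both Pearson's and Spearman's coefficient.

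Mice with high Lpin1 had high Lpin2 (Pearson r = 0.75, permutation p = 0.00018, adjusted p = 0.00405, and Spearman rho = 0.86, permutation p = 1e-05, the smallest these shuffles can give, adjusted p = 0.00045). Without the 2 mice farthest from the median of Lpin1, r was 0.868. Within the groups of 6 mice, r was 0.54 in mWT, 0.851 in mKO, 0.74 in fWT and 0.978 in fKO mice. In fKO mice, for example, mice 2 and 3 had the lowest values of both genes, 158 and 154 CPM for Lpin1 and 278 and 276.5 CPM for Lpin2, and mice 5 and 6 the highest values, 930 and 872 CPM for Lpin1 and 563 and 532 CPM for Lpin2.

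Lpin1 and Pnpla2 were correlated at r = 0.735 (permutation p = 4e-05, adjusted p = 0.0018) and rho = 0.713 (permutation p = 0.0003, adjusted p = 0.00675). Without the 2 mice farthest from the median of Lpin1, r was 0.722. Within the groups, r was 0.86 in mWT, 0.264 in mKO, 0.937 in fWT and 0.892 in fKO mice, so that the relation was weak in mKO mice, where mouse 2 had the lowest Lpin1 (319 CPM) and the next to highest Pnpla2 value (65.4 CPM). Whether the relation differs between the groups was not tested. Lpin2 and Pnpla2 had r = 0.545 (permutation p = 0.013, adjusted p = 0.146).

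Gpam and Pnpla3 were correlated at r = 0.563 (permutation p = 0.00669, adjusted p = 0.1) and rho = 0.592 (permutation p = 0.00328, adjusted p = 0.0492), which passed for 1 coefficient and not for the other, and without the 2 mice farthest from the median of Gpam r was 0.49. The highest mKO mouse of both genes was mouse 4, with 396 CPM for Gpam and 1.54 CPM for Pnpla3, and the highest fKO mouse of both was mouse 1, with 229 and 2.92 CPM. Lpin1 and Pnpla3, the most variable genes of the 10, had r = −0.08 with each other.

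**Figure D3:**
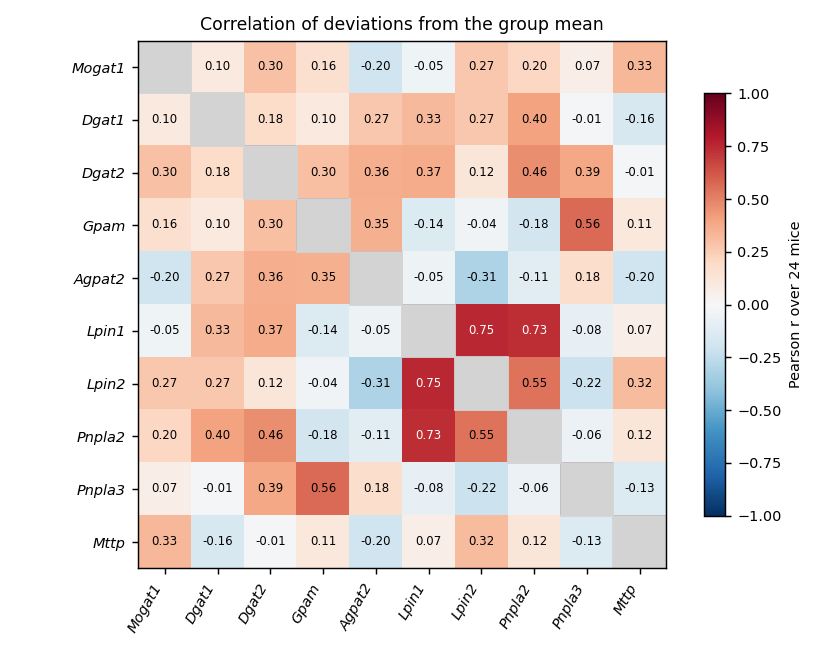
Pearson correlation (colour and number) of the deviations of log2(CPM + 0.5) from the group means for all 45 pairs of the 10 genes over 24 mice. The highest values are those of Lpin1 with Lpin2 (0.75) and with Pnpla2 (0.73), followed by Gpam with Pnpla3 (0.56) and Lpin2 with Pnpla2 (0.55).

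**Figure D4:**
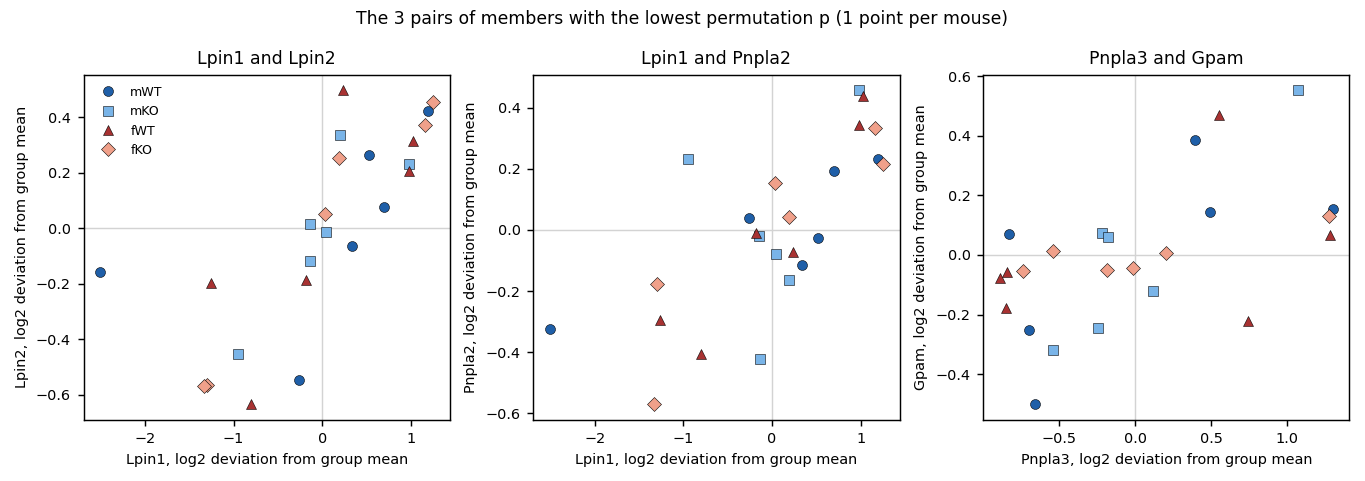
Deviations from the group mean on the log2 scale in the 24 mice (1 point per mouse, symbols by group) for Lpin1 with Lpin2, Lpin1 with Pnpla2 and Pnpla3 with Gpam. All 4 groups are spread along the first relation, and mWT mouse 2, with 98.8 CPM of Lpin1, is the point at the far left of the first and second panels.

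The deviations of Lpin1 were compared with library depth and with the summed markers of 8 cell types. With the total count r was −0.15 (permutation p = 0.488), with the hepatocyte markers 0.586 (permutation p = 0.00609) and with the red blood cell markers 0.489 (permutation p = 0.0197). For Pnpla2, r with the hepatocyte markers was 0.633 (permutation p = 0.00213). None of the 90 relations of the 10 genes with these 9 measures had an adjusted p-value under 0.05. The part of the hepatocyte markers in the covariation of Lpin1, Lpin2 and Pnpla2 was not tested.

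The sequences before the transcription starts of the genes that varied most or varied together are given so that genes that moved together can be compared base by base. The promoter table used here, from RefSeq (GRCm38.p6), held 8 of the 10 genes, Mogat1, Gpam, Agpat2, Lpin1, Lpin2, Pnpla2, Pnpla3 and Mttp. The 250 bases before the start are printed 5′ to 3′ on the strand of the gene, for Lpin1 from chr12:16610967-16611216 (minus strand), for Lpin2, at the first of its 3 listed starts, from chr17:71183282-71183531 (plus strand), for Pnpla2 from chr7:141454938-141455187 (plus strand) and for Pnpla3 from chr15:84167566-84167815 (plus strand). None of these 4 windows overlaps an exon of GENCODE M21. Capitals mark matches to 1 of 5 motifs, searched on both strands.
Lpin1: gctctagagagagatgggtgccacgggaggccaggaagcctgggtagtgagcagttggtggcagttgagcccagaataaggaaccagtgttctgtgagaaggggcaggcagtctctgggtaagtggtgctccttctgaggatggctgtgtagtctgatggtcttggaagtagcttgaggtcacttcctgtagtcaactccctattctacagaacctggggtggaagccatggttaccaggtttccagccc
Lpin2: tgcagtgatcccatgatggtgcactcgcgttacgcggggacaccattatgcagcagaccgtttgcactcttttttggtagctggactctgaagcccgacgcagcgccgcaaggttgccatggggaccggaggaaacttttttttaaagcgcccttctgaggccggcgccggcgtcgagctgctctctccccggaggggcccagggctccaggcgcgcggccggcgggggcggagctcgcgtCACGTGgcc
Pnpla2: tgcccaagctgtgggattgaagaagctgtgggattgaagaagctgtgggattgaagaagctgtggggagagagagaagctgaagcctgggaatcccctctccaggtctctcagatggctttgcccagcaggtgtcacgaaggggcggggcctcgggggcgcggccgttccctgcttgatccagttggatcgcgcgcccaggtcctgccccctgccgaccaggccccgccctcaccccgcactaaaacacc
Pnpla3: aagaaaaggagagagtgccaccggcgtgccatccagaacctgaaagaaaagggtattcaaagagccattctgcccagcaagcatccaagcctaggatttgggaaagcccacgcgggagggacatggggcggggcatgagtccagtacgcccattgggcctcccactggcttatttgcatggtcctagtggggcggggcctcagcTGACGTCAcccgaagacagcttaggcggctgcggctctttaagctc

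The motifs were the E-box CACGTG, the forkhead motif GTAAACA, the cyclic AMP response element TGACGTCA, TCACNCCAC, a form of the sterol response element, and AGGTCANAGGTCA, the direct repeat bound by nuclear receptors such as Hnf4a and Ppara. The Lpin2 window holds an E-box that begins 9 bases before the start, and the Pnpla3 window holds a cyclic AMP response element that begins 46 bases before it. Lpin1 and Pnpla2 hold none of the 5 motifs in these windows. The third listed start of Lpin2 has a forkhead motif that begins 138 bases before it. Over all 32851 listed starts, 6.02% of such windows hold the E-box, 3.17% the forkhead motif, 1.55% the cyclic AMP response element, 1.05% the sterol motif and 0.0335% the direct repeat. A match is a description of the letters.

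Finally, the deviations of Lpin1 and Pnpla3, taken after their spread had been seen, were compared with those of the 64 tested pathway genes, 128 relations in all. Lpin1 was correlated with 9 of the 64 genes and Pnpla3 with 5 of them, counted where both Pearson's and Spearman's coefficient had an adjusted p-value under 0.05. The share of all genes that would pass the same rule was not computed. These counts therefore cannot show that the pathway genes were related to Lpin1 or Pnpla3 more often than other genes. For Lpin1, 8 relations were positive. They included 3 of 15 regulators, the forkhead factor Foxo1 (r = 0.743, permutation p = 0.00024, and rho = 0.787, permutation p = 0.00015), the nuclear receptor Hnf4a (r = 0.769, permutation p = 0.00017, and rho = 0.689, permutation p = 0.00066) and the coactivator Ppargc1a (r = 0.624, permutation p = 0.00232, and rho = 0.59, permutation p = 0.00432). Among 11 lipid droplet genes were the perilipins Plin4 (r = 0.645, permutation p = 0.00068, and rho = 0.696, permutation p = 0.0003) and Plin5 (r = 0.63, permutation p = 0.00107, and rho = 0.592, permutation p = 0.00355). Among 11 lipolysis genes was the monoglyceride lipase Mgll (r = 0.725, permutation p = 0.00019, and rho = 0.709, permutation p = 0.00113).

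In TG synthesis, 2 of 14 genes, Gpat4 (r = 0.719, permutation p = 0.0007, and rho = 0.669, permutation p = 0.0017) and Agpat3 (r = 0.583, permutation p = 0.00284, and rho = 0.584, permutation p = 0.00274), were positively correlated with Lpin1, and Agpat5 was negatively correlated (r = −0.69, permutation p = 0.00181, and rho = −0.66, permutation p = 0.00265). None of 13 VLDL assembly genes passed for Lpin1. The adjusted p-values of the 9 relations lay between 0.0102 and 0.0303 for Pearson's and between 0.0169 and 0.0369 for Spearman's coefficient. Without the 2 mice farthest from the median of Lpin1, r was still between 0.495 and 0.773 for the 8 positive relations, and −0.61 for Agpat5.

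Of the 14 genes related to either, 0 were related to both Lpin1 and Pnpla3. So few genes passed for each that an overlap of 0 can arise by chance. The overlap to be had by chance was not computed, so this count cannot show that Lpin1 and Pnpla3 went with separate genes. Of the 15 regulators, 3 were positively correlated with Pnpla3, Mlxipl, which encodes the carbohydrate-responsive factor ChREBP (r = 0.717, permutation p = 0.00042, and rho = 0.718, permutation p = 0.00047), Srebf1, which encodes the lipogenic factor SREBP-1 (r = 0.695, permutation p = 0.00063, and rho = 0.683, permutation p = 0.00102), and Insig1 (r = 0.667, permutation p = 0.00032, and rho = 0.653, permutation p = 0.00053). The acyl-CoA synthetase gene Acsl5 was also positively correlated (r = 0.609, permutation p = 0.00543, and rho = 0.65, permutation p = 0.00292), and Apob, the structural protein of VLDL, negatively (r = −0.58, permutation p = 0.00648, and rho = −0.62, permutation p = 0.00405). The adjusted p-values of these 5 relations lay between 0.0102 and 0.0488 for Pearson's and between 0.0169 and 0.0369 for Spearman's coefficient, and without the 2 mice farthest from the median of Pnpla3 r was −0.65 for Apob and between 0.622 and 0.741 for the others.

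**Figure D5:**
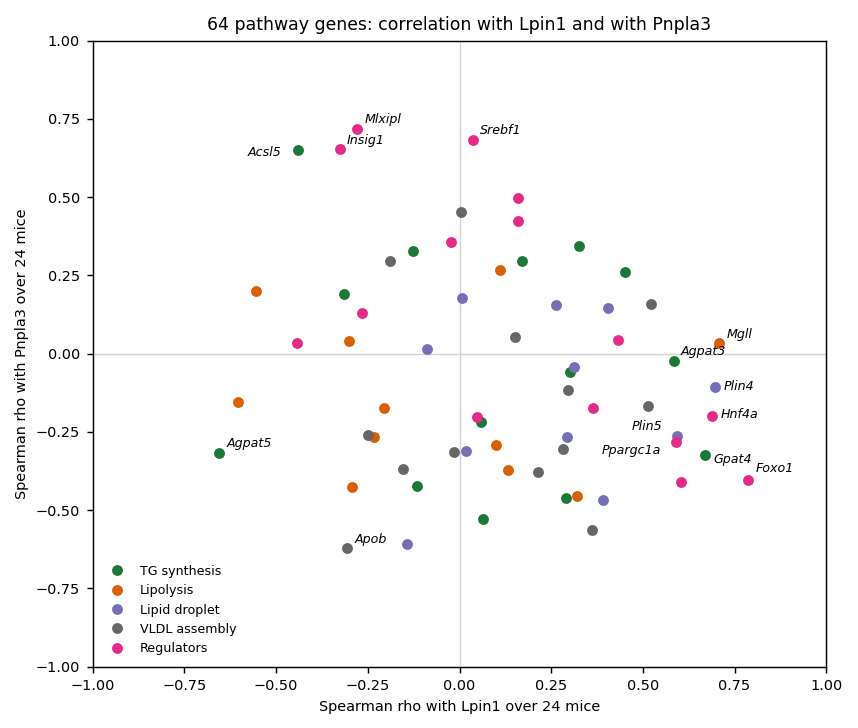
Spearman correlation of 64 pathway genes with Lpin1 (horizontal axis) and with Pnpla3 (vertical axis), from deviations from the group means over 24 mice, with colours by gene list and names for the 14 genes that passed for either. Foxo1, with a rho of 0.787, lies farthest along the Lpin1 axis, and Mlxipl, with a rho of 0.718, farthest along the Pnpla3 axis. No gene lies in the upper right corner, where the number to be had by chance was not computed.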

How the data were processed

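Liver RNA of 24 mice was measured, 6 each of mWT, mKO, fWT and fKO as named by the sample labels. The authors trimmed single-end reads of stranded mRNA libraries, sequenced in a single multiplex, with fastp 0.20, used STAR 2.7a for alignment to GRCm38.p6 and deposited raw counts per Ensembl gene from featureCounts, with no normalization. The strand setting and annotation release are not given in the sources used here, so counts of genes that overlap others on the opposite strand are uncertain.

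Symbols and loci were taken from GENCODE M21, which held 25712 of the 25746 genes. In edgeR 4.0.16 (R 4.3.3), genes reaching 0.66 CPM in 6 or more libraries were kept (12330 genes), libraries were scaled by TMM, and a robust quasi-likelihood model with 1 mean per group was fitted to all 24 libraries. P-values were adjusted by the Benjamini-Hochberg method over all genes tested. The procedure was checked on simulated counts. Replicates were compared before averaging, and the closest pair differed by more than sampling noise (chi-square per gene 8.07). Correlations and figures were made in Python 3.11.15.

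The genes and lists were chosen with earlier results of these data known. The genes named besides the 10 were those of the lists with an unadjusted p under 0.01 in a KO comparison, up to 3 per list for mWT against fWT, and the 3 most like Mogat1. Alternatives were DESeq2 1.42.0, its size factors, other filters, other dispersions, each sex on its own, the Mup genes removed, the replicate number as a block, other pseudocounts and each mouse left out. Leaving out a mouse with the genes tested held fixed, and the correlations of Lpin1 and Pnpla3 with the lists, were added after seeing the data. P-values measure the spread between these mice. Some genes are not reported here.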

Additional observations from a re-analysis of the deposited data

Results flagged for a closer look

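Of 40 combinations of a gene and a group of 6 mice, 4 held 1 mouse whose gap to the next one, as a share of the range of its group, was above the 95% critical value of Dixon's test. Chance gives such a mouse in about 1 of 20 groups. Gpam was at 243.2 CPM in fWT mouse 4, where the next mouse was at 184 CPM, and at 228.9 CPM in fKO mouse 1, where the next was at 211 CPM. Pnpla3 was at 1.535 CPM in mKO mouse 4, with the next mouse at 0.549 CPM, and at 2.922 CPM in fKO mouse 1, with the next mouse at 1.13 CPM. These are the highest mice of their groups, and fKO mouse 1 was the highest for both genes.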

How the results depend on the processing

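The log2FC of Mogat1 for mKO against mWT stayed between 1.22 and 1.67 and past an unadjusted p of 0.01 in the 52 alternatives that tested it. It fell under the filter without mWT mouse 2 or without any of mKO mice 1 to 5, which brought the count of called genes to 0. It passed after adjustment (a count of 1 in place of 0) without mWT mouse 2 when the genes tested were held fixed. With mice left out in turn, the count for mKO against mWT ranged from 0 to 1, and from 0 to 1 after adjustment. For mWT against fWT it ranged from 1 to 2 in both cases (2 without fWT mouse 2 or 3, and at the unadjusted p without fWT mouse 4), and for mKO against fKO from 1 to 4 in both cases. At the unadjusted p it was 2 without mWT mouse 2 or mKO mouse 5, and 1 without mKO mouse 4 (2 with the genes tested held fixed). After adjustment it was 2 without mWT mouse 2, mKO mouse 2 or fKO mice 1, 4 or 5, and 1 without mKO mouse 4 or 5 (with the genes tested held fixed, 2 without mKO mice 4 or 5 and fKO mice 1, 4 or 5). The number of correlated pairs ranged from 2 to 5, with 5 without fKO mouse 5.

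Log2FC close to 0 changed sign when a mouse was left out. For mKO against mWT, they ranged from −0.066 to 0.022 for Dgat1, −0.0099 to 0.21 for Gpam, −0.036 to 0.16 for Agpat2, −0.37 to 0.14 for Lpin1, −0.075 to 0.11 for Lpin2, −1.19 to 0.13 for Pnpla3 and −0.025 to 0.043 for Mttp. For fKO against fWT, the range was −0.11 to 0.041 for Agpat2, −0.015 to 0.20 for Lpin2 and −0.83 to 0.18 for Pnpla3. For the male minus the female KO effect, it was −0.0040 to 0.10 for Dgat1, −0.0033 to 0.19 for Agpat2, −0.18 to 0.032 for Lpin2, −0.015 to 0.17 for Pnpla2, −0.91 to 0.41 for Pnpla3 and −0.083 to 0.0057 for Mttp. For mWT against fWT, Dgat1 ranged from −0.0082 to 0.072.

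Mice with the same number in different groups are different animals. In 10 of 36 such pairs the correlation of deviations was over 0.1 (range −0.36 to 0.29, median −0.0066). These values have no reference to be set against, so they cannot show whether such mice share more than a number. With the replicate block, the log2FC of Mogat1 for mKO against mWT was 1.36 (unadjusted p = 0.00177, adjusted p = 0.181 with edgeR), and Gpam for mKO against fKO was at 0.38 and no longer past the cut-off, which left 3 genes called. No other call at the unadjusted cut-off changed in the alternatives that kept all mice. With DESeq2, the adjusted p of Mogat1 for mKO against mWT was not computed (unadjusted p = 0.000331). Depth limits Mogat1 and Pnpla3, with 2 to 69 reads per mouse. The cause of these changes was not tested.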

Other observations

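Among all 12330 genes, those whose deviations from the group means were most like those of Lpin1 were chosen after their values were seen and are given as a description over 24 mice. They were Rnf169 (Spearman rho = 0.876), Tmc7 (rho = 0.873), AA986860 (rho = 0.861), Lpin2 itself (rho = 0.86) and Plbd2 (rho = 0.856). The most negative were Depdc7 (rho = −0.91), Irs1, an adaptor of the insulin receptor (rho = −0.89), and Id2, an inhibitor of helix-loop-helix factors (rho = −0.85).

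For Pnpla3, genes among the most like were Fasn, the fatty acid synthase (rho = 0.841), Acly, the ATP citrate lyase (rho = 0.838), Sqle, the squalene epoxidase (rho = 0.833), and Acss2, the acetyl-CoA synthetase (rho = 0.81). Among the most negative were Fnta (rho = −0.76) and Hipk3 (rho = −0.75).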
